A study of Mus musculus with 16 samples.

Results

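Solute carriers are membrane proteins that move sugars, amino acids, ions, vitamins and other small molecules across the plasma membrane or the membranes of organelles, and their genes carry Slc symbols numbered by family. The genes described here were selected on their mean level: they are the Slc rows of the expression table that reached 2 FPKM (fragments per kilobase of transcript, scaled to the depth of the library) on average over all 16 libraries, leaving out Slc14a1, Slc40a1 and Slc11a2. They were 190 of the 369 Slc rows and of 23847 rows in all. The mean FPKM chose them, so their levels are given as a description.

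The libraries came from small intestinal organoids, epithelial cultures grown for 3 days from the crypts of C57BL/6 mice. Organoids carried the floxed allele Atg16L1 f/f, which served as the wild type, or were labelled Atg16L1 dIEC and lacked ATG16L1, a protein that autophagy needs to couple LC3 to membrane lipids. Each genotype was either unstimulated or exposed for 2 hours to murine TNF (tumour necrosis factor, an inflammatory cytokine) at 20 ng/ml, and each of the 4 groups held 4 libraries. All libraries shared the strain, the tissue and the day of culture. The sources used here do not give the driver that removed Atg16l1 or the number of animals, and no label says that the libraries of a group came from separate cultures. The p-values therefore speak only of the spread among these libraries, which may be technical.

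In the small intestine, absorptive enterocytes take up nutrients through carriers of the brush border and pass them to the blood through carriers of the basolateral membrane. Sodium-coupled carriers such as Slc5a1 (SGLT1, glucose and galactose) use the sodium gradient, whereas facilitative carriers such as Slc2a2 (GLUT2) let sugars follow their own gradient. Peptides enter through Slc15a1 (PEPT1), neutral amino acids through Slc6a19 (B0AT1), and pairs of a light and a heavy chain, such as Slc7a9 with Slc3a1, exchange amino acids. Chloride and bicarbonate are moved by Slc26 exchangers, sodium and protons by Slc9 exchangers, and zinc and manganese by the Slc39 importers and Slc30 exporters. Most members of the Slc25 family exchange metabolites across the inner mitochondrial membrane.

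Summed FPKM per library lay between 494221 and 610125. A rough estimate took the median of low FPKM values of single-exon genes, scaled to 1 kb, as the step of 1 fragment. By it, 2 FPKM over 1 kb of transcript stood for 71.1 to 83.6 fragments, depending on the library. Only 26 to 46 values per library within a fixed range were used, so that range limits where the estimate could fall. The libraries f/f 1 and dIEC 4 of each treatment, 4 in all, stood apart from the other 12 on the second principal component (10.3% of the variance). Counts of calls are also given without them. Atg16l1 measured 8.37 to 9.37 FPKM in f/f and 5.20 to 6.41 in dIEC, and 9.60 to 11.1 and 6.74 to 7.63 with TNF, so the groups did not overlap. These values cover the whole gene, and the sources used here do not name the exons deleted. Epithelial markers were high, for example 6077 to 8320 FPKM summed over 15 enterocyte genes that are not Slc genes. Of the genes measured, 7 of 9 immune genes and 9 of 10 mesenchymal and endothelial genes stayed under 1 FPKM in every library. The highest immune gene reached 36.9 FPKM and the highest mesenchymal or endothelial gene 10.4 FPKM. That immune gene was lower in dIEC by 0.43 without TNF and 0.40 with it on the log2 scale, and higher with TNF in both genotypes. In bulk RNA, fewer cells of a type and less RNA per cell cannot be told apart.

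By substrate the members fell into 42 ion carriers, 42 carriers of other organic compounds (vitamins, carboxylates, bile acids, drugs, lipids), 34 mitochondrial Slc25 carriers, 30 amino acid and peptide carriers, 21 members of the nucleotide sugar family Slc35, 13 sugar carriers and 5 nucleoside carriers. The remaining 3 have Slc symbols without being carriers, among them Slc9a3r1, which encodes the scaffold protein NHERF1. The class of other organic compounds also counts Slc22a13b-ps, a pseudogene grouped with its Slc22 relatives. The mitochondrial class was set by the Slc25 family, so it also holds members that are not carriers of the inner mitochondrial membrane. FPKM is scaled to length, so levels can be set beside each other across genes. The highest member was Slc25a5, the mitochondrial ADP/ATP carrier ANT2, at a mean of 917 FPKM over the 16 libraries, and it has many near-identical pseudogene copies whose reads the counting may have divided. It was followed by the mitochondrial phosphate carrier Slc25a3 at 399, the sodium-potassium-chloride cotransporter Slc12a2 (NKCC1) at 180.0, Slc5a1 at 167 and the mitochondrial citrate carrier Slc25a1 at 117 FPKM. Slc25a4, the ADP/ATP carrier ANT1 that prevails in heart and muscle, had a mean of 18.7 FPKM.

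Among amino acid carriers the highest were Slc38a2 at 46.8, Slc1a5 at 45.8 and the taurine carrier Slc6a6 at 42.3 FPKM, which lay close together. Slc29a1, an equilibrative nucleoside carrier, had 25.6 FPKM and the other 4 nucleoside carriers 2.05 to 4.21 FPKM. Just inside the minimum stood Slc29a3 at 2.05, Slc35g2 at 2.08 and Slc38a6 at 2.12 FPKM, and just outside it Slc2a4rg-ps at 1.98, Slc46a3 at 1.97 and Slc15a2 at 1.96 FPKM. Of 38 intestinal carriers listed from textbook knowledge, 3 lay below the minimum, namely the phosphate carrier Slc34a2 (0.437 FPKM), the nucleoside carrier Slc28a2 (0.345) and the ileal bile acid carrier Slc10a2 (1.22). Slc28a3, Slc29a2, Slc29a3, Slc35g2, Slc37a2, Slc44a2, Slc47a1 and Slc6a20b, 8 members, had a mean under 2 FPKM in at least 1 group and met the rule through the groups where they were higher, so the choice favoured a difference in them. The plot of levels shows the spread within each class.

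**Figure D1:**
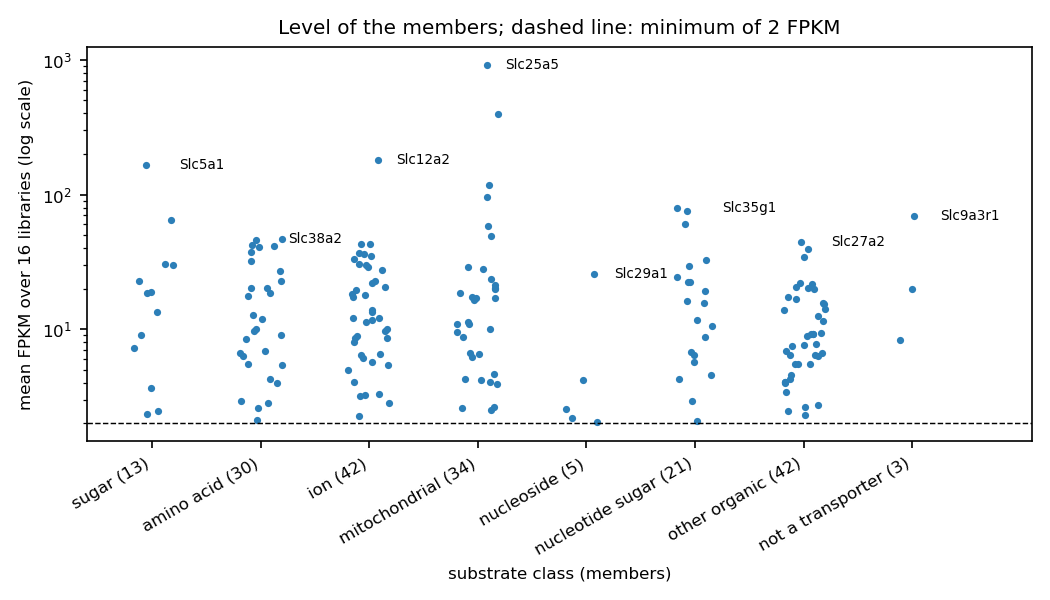
Mean FPKM of each of the 190 members over the 16 libraries on a log scale, by substrate class, with the number of members in brackets and the minimum of 2 FPKM as a dashed line. Each point is a gene and the highest of each class is named. The mitochondrial class reaches 917 FPKM (Slc25a5), while nucleoside carriers other than Slc29a1 lie under 5 FPKM.

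TNF changed the carriers of the f/f organoids in both directions within 2 hours. With limma on log2(FPKM + 1) and Benjamini-Hochberg adjusted p under 0.05 over the 11097 rows that averaged 1 FPKM or more (written as called from here on), 49 of the 190 members rose and 51 fell. Over all rows tested 47.2% were called, 26.9% higher and 20.3% lower, so the share of members called (52.6%) was close to that of all genes. The 4 values with TNF lay all above or all below the 4 without it for 50.5% of members and for 44.0% of all rows. In dIEC organoids 45 members rose and 62 fell, against 53.1% of all rows called (33.4% higher and 19.8% lower), and the groups did not overlap for 49.5% of members and for 42.5% of all rows. The median log2 change of members was 0.02 in f/f and 0.01 in dIEC, against 0.05 and 0.09 over all rows. The balance of rises and falls depended on the processing. After quantile normalization the members split into 44 higher and 70 lower in f/f and 40 and 85 in dIEC. With sample weights they split into 76 and 64 in f/f and 76 and 71 in dIEC, and without the 4 libraries that stood apart into 73 and 61 and into 65 and 73. Without f/f library 1 with TNF alone, 65 rose and 45 fell in f/f. Over all rows, 2986 were higher and 2249 lower in f/f as reported, and 3702 and 2195 in dIEC. Quantile normalization split all rows into 2346 and 2844 in f/f and 2552 and 2939 in dIEC. Median-of-ratios scaling gave 2588 and 2713 in f/f and 2773 and 2875 in dIEC. Leaving out f/f library 1 with TNF gave 3597 higher and 2183 lower in f/f. Sample weights gave 4671 and 2957 in f/f and 5419 and 2723 in dIEC. Without the 4 libraries that stood apart the splits of all rows were 4198 and 2673 and, in dIEC, 5067 and 2684.

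In both genotypes 36 members rose, out of 49 in f/f and 45 in dIEC, and 44 fell, out of 51 and 62. Of all rows 47.2% were called in f/f and 53.1% in dIEC. The share of all rows called in both was not counted, so this overlap of members is only a description. Slc15a1 and Slc17a4 were called higher with TNF in f/f and lower in dIEC, but these rises in f/f did not hold in every fit (given with the genotypes). By class, 10 of 13 sugar carriers were called in each genotype (9 to 12 in f/f and 9 to 11 in dIEC under the alternatives). Of 34 mitochondrial carriers 12 were called in f/f and 11 in dIEC (10 to 19 and 9 to 23). The plot of changes by class gives every member.

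**Figure D2:**
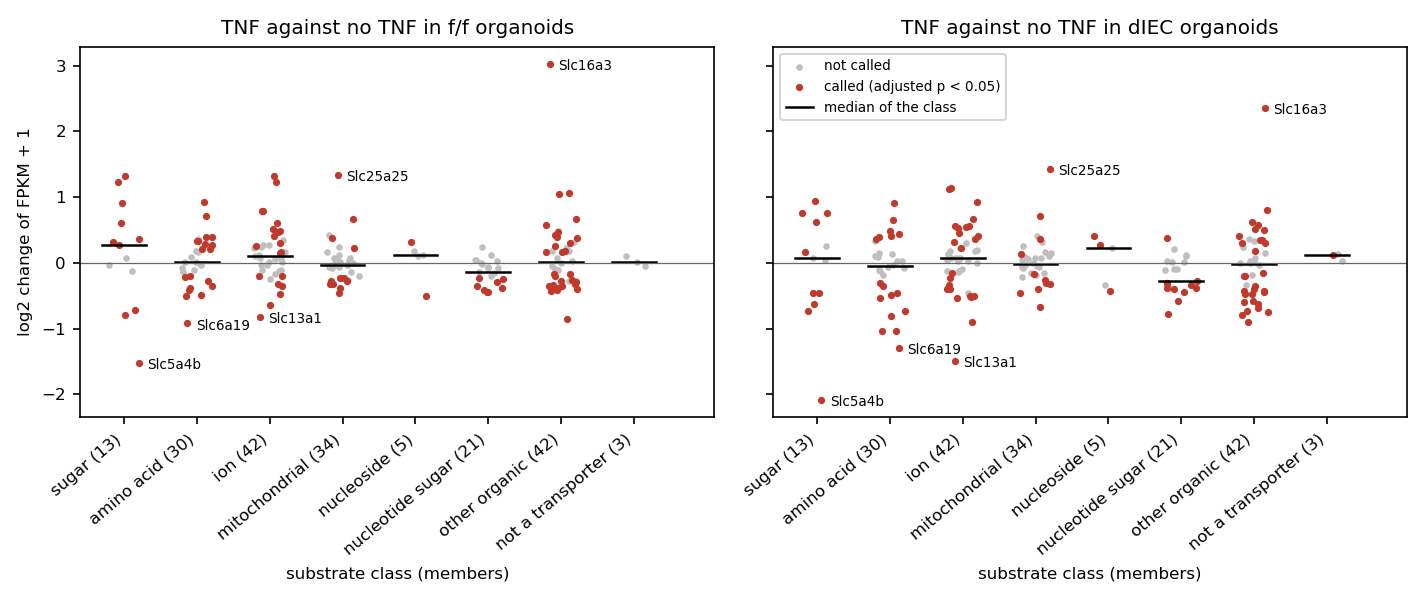
Log2 change of FPKM + 1 with TNF for each member in f/f (left) and dIEC (right) organoids, by substrate class. Red points were called, grey points were not, and black bars are class medians. Slc16a3 stands highest in both panels (3.03 and 2.35) and Slc5a4b lowest (-1.52 and -2.09), and the Slc35 class lies below 0 at its median in both.

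Among carriers of other organic compounds, 14 rose and 15 fell in f/f, and 12 rose and 18 fell in dIEC. The strongest riser of all members was Slc16a3 (MCT4, chromosome 11, 120948484 to 120959000, mm10), a proton-coupled exporter of lactate. It measured 2.63, 4.31, 4.82 and 3.75 FPKM in unstimulated f/f and 26.2, 46.4, 40.4 and 43.3 with TNF. In the dIEC libraries it stood at 9.49, 7.02, 6.24 and 3.95 and, with TNF, 41.3, 40.9, 40.6 and 26.8. All TNF values lay far above all untreated ones, and f/f library 1 and dIEC library 4 were the lowest of their TNF groups. The log2 change was 3.03 (SE 0.23, adjusted p = 7.3e-08) in f/f and 2.35 (SE 0.23, adjusted p = 8.55e-07) in dIEC, and the difference between these responses was not called (log2 -0.68, SE 0.325, adjusted p = 0.393). With genotype and replicate number as a block it was (adjusted p = 0.0115). Its relative Slc16a1 (MCT1) rose less, from 35.0 ± 0.451 to 42.2 ± 1.21 FPKM in f/f (SD, n = 4) and from 35.2 ± 1.94 to 45.2 ± 1.37 in dIEC. Slc16a12, a creatine carrier of the same family, fell from 14.4, 13.2, 13.2 and 13.0 to 7.42, 6.51, 7.08 and 7.10 FPKM in f/f, a log2 change of -0.85 (SE 0.0724, adjusted p = 2.72e-07), and from 9.97, 11.0, 10.1 and 12.1 to 4.85, 5.03, 5.13 and 6.31 in dIEC, a change of -0.90 (SE 0.0724, adjusted p = 1.07e-07).

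Slc16a3, Slc5a4b, Slc25a25 and Slc30a10 had the largest changes called in both genotypes among members with a promoter in the sequence table, ranked by the smaller of the 2 changes (Slc39a14, ranked between Slc25a25 and Slc30a10, had no entry). Their promoters are shown because these members moved furthest with TNF. The sequences are RefSeq's for GRCm38.p6, from 250 bases before to 50 bases after the start of the gene, 5′ to 3′ on the strand of the gene: chr11:120948817-120949116, plus strand for Slc16a3, chr10:76110969-76111268, minus strand for Slc5a4b, chr2:32451421-32451720, minus strand for Slc25a25 (the first of its 3 entries) and chr1:185454598-185454897, plus strand for Slc30a10. The window of Slc16a3 lies inside the gene span given above, so the start used for it is downstream of the start of that span. Capitals mark matches to the motifs searched on both strands.
Slc16a3: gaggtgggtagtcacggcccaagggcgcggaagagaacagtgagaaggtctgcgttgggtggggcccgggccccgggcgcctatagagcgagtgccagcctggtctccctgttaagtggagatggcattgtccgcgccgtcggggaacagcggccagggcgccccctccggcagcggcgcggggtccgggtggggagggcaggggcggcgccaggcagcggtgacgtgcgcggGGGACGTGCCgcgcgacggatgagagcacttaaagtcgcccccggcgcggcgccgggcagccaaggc
Slc5a4b: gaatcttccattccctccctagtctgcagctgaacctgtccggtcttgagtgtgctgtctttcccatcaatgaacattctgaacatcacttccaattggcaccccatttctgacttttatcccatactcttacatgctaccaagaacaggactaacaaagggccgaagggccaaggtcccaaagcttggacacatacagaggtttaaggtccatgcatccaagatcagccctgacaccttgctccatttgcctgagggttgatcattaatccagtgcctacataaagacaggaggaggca
Slc25a25: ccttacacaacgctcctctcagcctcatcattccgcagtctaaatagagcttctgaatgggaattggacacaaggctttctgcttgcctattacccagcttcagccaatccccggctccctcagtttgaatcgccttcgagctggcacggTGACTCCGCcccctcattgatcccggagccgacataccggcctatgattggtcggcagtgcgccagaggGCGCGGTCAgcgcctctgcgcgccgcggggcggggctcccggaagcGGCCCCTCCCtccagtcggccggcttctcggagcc
Slc30a10: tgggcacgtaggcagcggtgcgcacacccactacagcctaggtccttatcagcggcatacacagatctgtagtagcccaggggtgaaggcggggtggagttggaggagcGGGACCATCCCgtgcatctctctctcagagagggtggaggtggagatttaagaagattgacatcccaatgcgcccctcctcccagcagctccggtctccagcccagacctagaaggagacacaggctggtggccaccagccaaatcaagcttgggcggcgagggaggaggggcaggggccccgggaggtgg

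The motifs searched were the kB type GGGANNNNCC, the ATF4 type TGATGNAA, the antioxidant response core TGACNNNGC and TATAAA. NF-kB can bind some sequences of the kB type. Its 4 free bases also admit others, so a match need not be a binding site. Counted from the start used for each window, Slc16a3 held a kB-type match starting at -17. Slc30a10 held a pair of overlapping matches on opposite strands starting at -141 and -140. Slc25a25 held a kB-type match at 16 bases from the start and 2 antioxidant cores at -100 and -31, while in the window of Slc5a4b none of the 4 motifs was found. Over the 146 members with a promoter entry (44 had none), 37 held the kB type, which is 25.3%, against 20.5% of all 27025 promoters. It was found in 12 of the 26 promoters of members that rose in both genotypes and in 6 of the 36 of members that fell in both. The antioxidant core was found in 27 of 146 (12.5% of all promoters), TATAAA in 11 (14.2% of all) and the ATF4 type in 4 (4.06% of all). These are counts of letters in a window and were not tested.

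Sugar carriers rose more often than they fell in f/f (7 and 3) and split evenly in dIEC (5 and 5), with median log2 changes of 0.27 and 0.07. Slc5a1 (SGLT1, chromosome 5, 33104219 to 33162699), the brush border glucose carrier, measured 87.1, 98.5, 95.3 and 102 FPKM in f/f and 218, 237, 256 and 248 with TNF. For dIEC the values were 132, 123, 113 and 127 and 224, 201, 193 and 217 with TNF. The groups did not overlap in either genotype, with log2 changes of 1.32 (SE 0.0681, adjusted p = 9.9e-10) in f/f and 0.75 (SE 0.0681, adjusted p = 3.75e-07) in dIEC. Slc2a5 (GLUT5), the fructose carrier, rose from 11.1, 14.9, 14.1 and 14.0 to 31.0, 32.0, 32.8 and 36.4 FPKM in f/f (log2 1.23, SE 0.0908, adjusted p = 5.31e-08) and from 17.6, 17.8, 15.2 and 14.9 to 32.1, 28.0, 25.9 and 27.3 in dIEC (log2 0.76, SE 0.0908, adjusted p = 7.24e-06). Slc2a1 (GLUT1), the glucose carrier found on most cells, rose from 12.2 ± 2.02 to 23.9 ± 3.94 in f/f (SD, n = 4) and from 13.2 ± 2.18 to 26.2 ± 3.62 in dIEC, changes of 0.91 and 0.94. Slc2a2 (GLUT2) rose in f/f by 0.36 (SE 0.0575, adjusted p = 0.000133), and in dIEC its change was 0.04 (SE 0.0575, adjusted p = 0.567), which was not called.

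Slc5a4b (chromosome 10, 76058618 to 76111018), a member of the sodium/glucose cotransporter family of Slc5a1 with the close paralog Slc5a4a, measured 85.0, 93.0, 89.3 and 97.0 FPKM in f/f and 26.1, 30.7, 35.2 and 32.6 with TNF. In dIEC it measured 97.0, 125, 104 and 121 and 26.8, 27.3, 20.9 and 26.9. Every TNF value was under 36 FPKM and every untreated value above 84, and the log2 changes of -1.52 (SE 0.105, adjusted p = 2.46e-08) and -2.09 (SE 0.105, adjusted p = 5.58e-10) were the largest falls of all members. The sources used here do not say how reads shared by the paralogs were divided. Slc50a1 (SWEET1) fell by 0.72 in f/f and 0.47 in dIEC, and Slc37a2, a sugar phosphate carrier below the minimum in both TNF groups, by 0.80 and 0.63 on the log2 scale. Slc37a4, which brings glucose 6-phosphate into the endoplasmic reticulum, rose in f/f by 0.31 (SE 0.0787, adjusted p = 0.00439) and its change in dIEC was 0.07 (SE 0.0787, adjusted p = 0.48), not called.

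**Figure D3:**
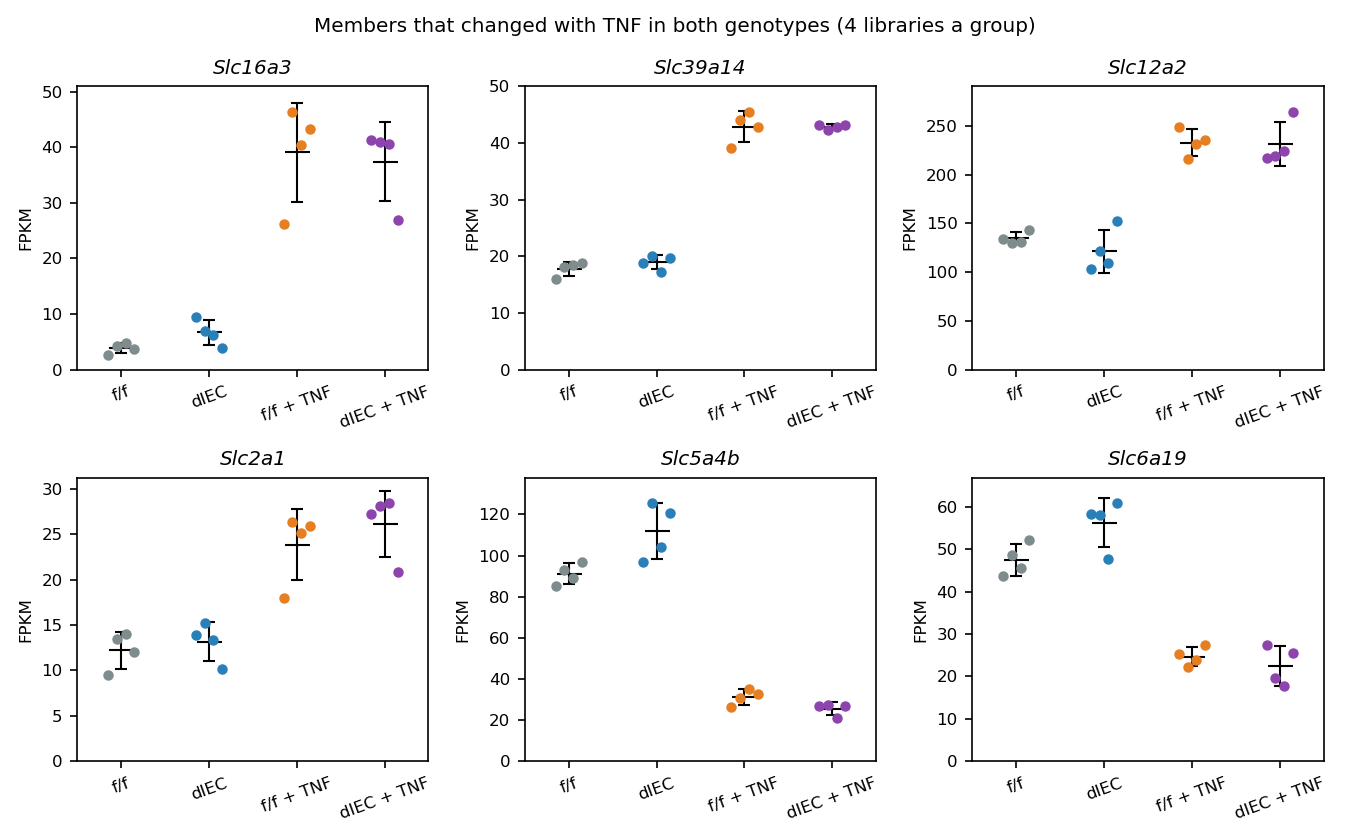
FPKM of 6 members in each of the 4 groups, each point a library, with the mean (bar) and SD (whiskers) of 4 libraries and axes from 0. Slc16a3, Slc39a14, Slc12a2 and Slc2a1 are higher with TNF in every library of both genotypes, and Slc5a4b and Slc6a19 lower. In Slc16a3 and Slc2a1 the lowest TNF points are f/f library 1 and dIEC library 4.

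Among amino acid carriers, 10 of 30 rose and 9 fell in f/f, and in dIEC 7 rose and 10 fell. Slc38a1 and Slc38a2, sodium-coupled carriers of glutamine and other neutral amino acids, rose. Slc38a1 went from 10.9, 13.3, 12.7 and 13.1 to 24.9, 24.2, 25.8 and 23.8 FPKM in f/f (log2 0.93, SE 0.0611, adjusted p = 1.46e-08) and by 0.91 (SE 0.0611, adjusted p = 1.42e-08) in dIEC. Slc38a2 went from 33.4, 34.7, 34.7 and 38.1 to 61.5, 53.4, 58.4 and 61.1 in f/f (log2 0.72, SE 0.0814, adjusted p = 5.44e-06) and by 0.64 (SE 0.0814, adjusted p = 1.17e-05) in dIEC. For both genes the groups did not overlap in either genotype. Slc7a5 (LAT1), an exchanger of large neutral amino acids, rose by 0.40 and 0.44, and Slc1a1, the epithelial glutamate carrier, by 0.33 and 0.39.

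Several carriers of amino acid absorption fell. Slc6a19 (B0AT1), the main brush border carrier of neutral amino acids, measured 43.8, 48.7, 45.5 and 52.3 FPKM in f/f and 25.2, 22.2, 23.9 and 27.3 with TNF. In the dIEC libraries it stood at 58.2, 58.1, 47.8 and 60.9 and 27.4, 19.5, 17.6 and 25.6. No TNF value reached an untreated one, with log2 changes of -0.92 (SE 0.121, adjusted p = 2.26e-05) and -1.30 (SE 0.121, adjusted p = 5.16e-07). Slc6a20a, which carries proline, fell by 0.41 and 1.03, Slc7a9, the light chain of the cystine and basic amino acid exchanger, by 0.35 and 0.49, Slc7a8 (LAT2) by 0.51 and 1.03, and Slc7a7 (y+LAT1) by 0.39 and 0.74, in f/f and dIEC in that order. The heavy chain Slc3a1 fell in dIEC by 0.35 (SE 0.0594, adjusted p = 0.000197). In f/f its change was -0.11 (SE 0.0594, adjusted p = 0.158), not called, but called with the replicate block (adjusted p = 0.0460). Slc3a2, the heavy chain shared by the basolateral exchangers, had changes of 0.01 and -0.03, and the glutamine carrier Slc1a5 of 0.09 and 0.04, none of them called. Slc7a11, the cystine/glutamate exchanger, fell in f/f by 0.48 (SE 0.0947, adjusted p = 0.00076) and its change in dIEC was -0.11 (SE 0.0947, adjusted p = 0.344), not called.

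Ion carriers rose more often than they fell (13 and 7 of 42 in f/f, 13 and 11 in dIEC), although under median-of-ratios scaling dIEC had 12 higher and 15 lower and under quantile normalization 11 and 15. Slc12a2 (NKCC1), the basolateral carrier that loads crypt cells with chloride for secretion, measured 134, 130.3, 131 and 144 FPKM in f/f and 249, 216, 231 and 235 with TNF, a log2 change of 0.78 (SE 0.101, adjusted p = 1.82e-05). For dIEC the values were 103, 121, 109.6 and 153 and 217, 219, 224 and 264, a change of 0.93 (SE 0.101, adjusted p = 2.32e-06). The groups did not overlap, and dIEC library 4 was the highest of its group in both treatments. The chloride-absorbing exchanger Slc26a3 (DRA) fell from 50.0, 48.6, 49.6 and 52.0 to 31.0, 31.2, 32.6 and 32.6 in f/f (log2 -0.64, SE 0.0628, adjusted p = 1.28e-06) and by 0.90 (SE 0.0628, adjusted p = 2.2e-08) in dIEC, and Slc26a6 fell by 0.32 and 0.50. All 3 Slc26 members fell in both genotypes in the fit as reported. Slc26a2 lost its f/f call (adjusted p up to 0.128) in 10 of the 16 fits without 1 library, and held it when the library omitted was f/f 1, dIEC 1 or dIEC 4, or with TNF f/f 3, dIEC 3 or dIEC 4. Slc9a3 (NHE3), which takes up sodium at the brush border, rose from 8.11 ± 0.939 to 14.8 ± 2.18 FPKM in f/f and from 9.88 ± 1.02 to 13.9 ± 0.933 in dIEC (SD, n = 4), changes of 0.79 and 0.46.

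Among carriers of metals, Slc39a14 (ZIP14), an importer of zinc, manganese and iron, measured 15.9, 18.0, 18.4 and 18.8 FPKM in f/f and 39.1, 44.1, 45.5 and 42.9 with TNF, a log2 change of 1.22 (SE 0.0588, adjusted p = 4.21e-10). In dIEC it measured 18.9, 20.1, 17.3 and 19.7 and 43.2, 42.3, 42.9 and 43.2, a change of 1.14 (SE 0.0588, adjusted p = 8.02e-10). Slc30a10, a manganese exporter, rose from 4.64, 5.15, 5.15 and 5.00 to 13.4, 13.9, 15.3 and 13.3 FPKM in f/f (log2 1.32, SE 0.0524, adjusted p = 4.69e-11) and from 6.24, 6.72, 5.83 and 6.65 to 15.7, 15.0, 14.4 and 14.8 in dIEC (log2 1.12, SE 0.0524, adjusted p = 2.34e-10). Both genes were higher in every TNF library than in any untreated one. The brush border zinc importer Slc39a4 (ZIP4) rose by 0.51 and 0.66. The zinc exporter Slc30a1 had changes of -0.03 and -0.13 and the copper importer Slc31a1 of 0.05 and -0.00, none of them called. The sulfate carrier Slc13a1 was the largest fall among ion carriers and is described with the genotypes.

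Of the 34 mitochondrial carriers 4 rose and 8 fell in f/f and 4 rose and 7 fell in dIEC, which is 35.3% and 32.4% against 47.2% and 53.1% of all rows. The counts reached 5 and 14 in both genotypes after quantile normalization, 10 and 9 in f/f and 8 and 11 in dIEC without the 4 libraries that stood apart, 9 and 10 in f/f with sample weights, and 11 and 12 in dIEC with the block of genotype and number. Slc25a5, Slc25a3 and Slc25a4 were not called in either genotype. Slc25a25, a calcium-regulated carrier of ATP-magnesium and phosphate, measured 4.21, 5.94, 4.92 and 5.33 FPKM in f/f and 11.7, 15.7, 14.9 and 15.5 with TNF, a log2 change of 1.34 (SE 0.114, adjusted p = 2.44e-07). In the dIEC libraries it stood at 5.01, 6.01, 4.93 and 4.32 and 16.7, 16.4, 15.6 and 12.8, a change of 1.43 (SE 0.114, adjusted p = 8.9e-08). Slc25a13 (citrin), an aspartate/glutamate carrier, rose from 7.93 ± 0.472 to 13.2 ± 0.487 in f/f and from 8.29 ± 0.442 to 14.3 ± 0.493 FPKM in dIEC (SD, n = 4), and the citrate carrier Slc25a1 rose by 0.38 and 0.36. The mitochondrial iron importer Slc25a37 (mitoferrin 1) fell by 0.38 and 0.45.

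Many characterised members of the Slc35 family bring nucleotide sugars or ATP into the endoplasmic reticulum and Golgi. Of its 21 members here, 0 rose and 8 fell in f/f, and 1 (Slc35a4, by 0.38) rose and 10 fell in dIEC. This direction was the same under median-of-ratios scaling (0 and 9, 1 and 13) and quantile normalization (0 and 12, 1 and 13). Falls still outnumbered rises, with more members rising, with sample weights (2 and 10, 5 and 11) and the block of genotype and number (2 and 11, 4 and 13). Without the 4 libraries that stood apart the counts were 2 and 10 in f/f and 4 and 12 in dIEC. The median log2 changes were -0.14 and -0.27. Slc35b1 fell from 83.3, 84.4, 85.0 and 84.4 to 58.9, 64.9, 64.9 and 65.2 FPKM in f/f (log2 -0.41, SE 0.0452, adjusted p = 4.61e-06) and by 0.38 (SE 0.0452, adjusted p = 7.14e-06) in dIEC. Slc35g1 fell from 89.8 ± 2.90 to 66.1 ± 2.63 in f/f and from 97.2 ± 8.67 to 64.9 ± 6.79 in dIEC (SD, n = 4). Slc35a3, which carries UDP-N-acetylglucosamine, had changes of 0.04 and 0.12, not called.

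Of the 5 nucleoside carriers, Slc28a3 and Slc29a3 were below the minimum in 1 or 2 groups and chosen through the others. Slc28a3, which is coupled to sodium, fell by 0.50 (SE 0.0743, adjusted p = 7.35e-05) in f/f and 0.42 (SE 0.0743, adjusted p = 0.000258) in dIEC. Slc29a3, of endosomal membranes, rose by 0.31 and 0.28. The dIEC call of Slc29a1 (log2 0.40, SE 0.156, adjusted p = 0.0411) was lost in 7 of the 16 fits without 1 library, when f/f library 4, dIEC library 1, 3 or 4, or dIEC library 1, 2 or 3 with TNF was left out (adjusted p up to 0.126). Its change in f/f was 0.19 (SE 0.156, adjusted p = 0.347), not called, but called with the replicate block (adjusted p = 0.0110). Among the other organic carriers, both chains of the basolateral bile acid exporter fell, Slc51a by 0.44 and 0.59 and Slc51b by 0.38 and 0.73. The fatty acid carrier Slc27a2 fell by 0.17 and 0.45, with its f/f call lost without f/f library 4 or without f/f library 1 or 2 with TNF (adjusted p up to 0.0628).

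Of 64 tested genes of other membrane transport (pumps, channels, ABC carriers, aquaporins), 21 rose and 10 fell with TNF in f/f, and 20 rose and 17 fell in dIEC. Over all rows 26.9% were called higher and 20.3% lower in f/f, and 33.4% and 19.8% in dIEC. The share of these genes called was thus close to that of all genes. Among the 64, picked after their values were seen, the chloride channel Cftr rose by 0.45 and 0.49 and the potassium channel Kcnq1 by 0.60 and 0.67. Both subunits of the mitochondrial pyruvate carrier fell, Mpc1 by 0.59 and 0.75 and Mpc2 by 0.58 and 0.56. Cd36, a fatty acid carrier, fell by 0.90 and 1.84. Stem cell markers rose with TNF in both genotypes (6 of 7, median 0.92 and 0.96), and enterocyte markers split (7 higher and 2 lower of 15 in f/f, 4 and 6 in dIEC). Their part in the carrier changes was not tested.

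Without TNF, the called differences between dIEC and f/f organoids were small in size, up to 0.40 on the log2 scale. Of 190 members 10 were higher and 1 lower in dIEC, 5.79% against 2.32% of all rows (1.54% higher and 0.784% lower), and the groups did not overlap for 23 members that were higher and 3 that were lower, 13.7% against 7.02% of all rows. The largest called rise was that of Slc13a1 (NaS1, chromosome 6, 24088283 to 24168119), the brush border sulfate carrier, which measured 28.4, 26.0, 28.5 and 27.5 FPKM in f/f and 36.7, 36.6, 34.0 and 39.4 in dIEC, a log2 difference of 0.40 (SE 0.0533, adjusted p = 0.00077). Slc5a1 was higher by 0.37 (SE 0.0681, adjusted p = 0.00922), Slc2a2 by 0.32 (SE 0.0575, adjusted p = 0.00803), from 22.9, 25.4, 24.2 and 26.0 to 29.1, 31.4, 29.2 and 34.1 FPKM, and Slc30a10 by 0.30 (SE 0.0524, adjusted p = 0.00624). In these 4 genes every dIEC library lay above every f/f library and the call held in each fit without 1 library. Mean FPKM in dIEC was 1.29-fold that in f/f for Slc5a1 and 1.33-fold for Slc13a1. Slc2a2 and Slc30a10 lost the call when the 8 unstimulated libraries were fitted alone (adjusted p = 0.0644 and 0.0562). The largest difference of any member, that of Slc16a3 (log2 0.63, SE 0.23, adjusted p = 0.27), was not called.

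The other 7 calls depended on which libraries were fitted. Slc15a1 was higher by 0.32 (SE 0.0782, adjusted p = 0.0434), Slc17a4 by 0.30 (SE 0.0654, adjusted p = 0.0274), Slc22a4 (OCTN1, an ergothioneine carrier) by 0.29 (SE 0.0614, adjusted p = 0.0247), the drug exporter Slc47a1 (MATE1) by 0.25 (SE 0.0522, adjusted p = 0.0233), Slc35f5 by 0.22 (SE 0.0485, adjusted p = 0.0302) and Slc10a5 by 0.33 (SE 0.075, adjusted p = 0.0313). Slc16a12 was lower by 0.30 (SE 0.0724, adjusted p = 0.0463). Leaving out 1 library ended the calls of Slc17a4, Slc22a4 and Slc10a5 in 7 of 16 fits (adjusted p up to 0.0852, 0.0779 and 0.102), of Slc47a1 and Slc35f5 in 6 (0.0843 and 0.0956) and of Slc15a1 and Slc16a12 in 13 (0.143 and 0.159). For Slc17a4, Slc22a4 and Slc10a5 these fits left out an unstimulated f/f library or dIEC library 1, 2 or 4, for Slc47a1 the same without f/f library 4, and for Slc35f5 the same without f/f library 1. Slc15a1 held the call only when the library omitted was f/f 1, dIEC 2 or dIEC 4 of those with TNF, and Slc16a12 only when it was dIEC 4, or with TNF f/f 1 or dIEC 4. Other settings also ended calls. Slc16a12 and Slc35f5 lost theirs under median-of-ratios scaling (adjusted p = 0.148 and 0.101) and quantile normalization (0.212 and 0.176), and Slc10a5 and Slc17a4 under quantile normalization (0.0835 and 0.0646). With no minimum mean, Slc10a5, Slc15a1 and Slc16a12 lost the call (0.0525, 0.0699 and 0.0700), and Slc16a12 also with a pseudocount of 0.1 (0.0560). In the 8 unstimulated libraries alone 6 of the 7 lost it (0.0653 to 0.179), Slc22a4 being the exception, and without the 4 libraries that stood apart Slc10a5 and Slc15a1 did (0.0556 and 0.0604). The count of members called ranged from 4 to 13 over these fits. It was 5, 4, 4 and 5 without f/f libraries 1, 2, 3 and 4, and 4, 4 and 6 without dIEC libraries 1, 2 and 4. It was 19 (13 higher, 6 lower) without the 4 libraries that stood apart, where 693 of all 11121 rows were called (335 higher, 358 lower).

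Of the enterocyte markers outside the Slc genes, 4 of 15 were higher and 0 lower in dIEC, with sums of 6077 to 6466 FPKM in f/f and 6131 to 7709 in dIEC. Paneth cell markers were lower (5 of 10, none higher), with sums of 18454 to 21397 in f/f and 14954 to 17734 in dIEC. The part of these cell types in the carrier differences was not tested.

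With TNF, the genotype difference ran mostly the other way. Of the members 3 were higher in dIEC and 14 lower, 8.95% against 6.5% of all rows (3.79% higher and 2.7% lower), and the groups did not overlap for 7 that were higher and 20 that were lower, 14.2% against 13.9% of all rows. Slc13a2 (NaDC1), the brush border carrier of citrate and other dicarboxylates, measured 4.66, 7.31, 8.35 and 7.12 FPKM in f/f with TNF and 3.21, 3.62, 3.59 and 2.73 in dIEC with TNF, a log2 difference of -0.86 (SE 0.17, adjusted p = 0.00553). All dIEC values lay below the f/f ones, f/f library 1 being the lowest of its group. Slc13a1 was lower by 0.28 (SE 0.0533, adjusted p = 0.00413), Slc17a4 by 0.30 (SE 0.0654, adjusted p = 0.0102), Slc16a12 by 0.35 (SE 0.0724, adjusted p = 0.00779) and Slc22a13b-ps, a pseudogene that may share reads with related Slc22 genes, by 0.47 (SE 0.0916, adjusted p = 0.00511). The 3 higher members were Slc16a5 (MCT6), which measured 6.40, 7.53, 7.69 and 7.47 FPKM in f/f and 10.8, 10.5, 9.93 and 9.06 in dIEC (log2 0.42, SE 0.0683, adjusted p = 0.00112), the calcium-regulated mitochondrial carrier Slc25a24 (log2 0.23, SE 0.0396, adjusted p = 0.00208, but 0.0700 after quantile normalization) and the phosphate carrier Slc20a1 (log2 0.24, SE 0.062, adjusted p = 0.0291).

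Of these 17 calls, 7 held in each fit without 1 library, those of Slc13a1, Slc13a2, Slc16a5, Slc16a12, Slc17a4, Slc22a13b-ps and Slc25a24. The call of Slc20a1 was lost without library 1, 2 or 4 of either genotype with TNF (adjusted p up to 0.098). Also lower were Slc15a1 by 0.34, Slc7a8 by 0.37, Slc5a11 by 0.45, Slc6a20b by 0.29, Slc25a23 by 0.30, Slc5a9 by 0.27, Slc30a2 by 0.31, Slc22a4 by 0.23 and Slc39a8 by 0.18. Each of these 9 lost its call without at least 1 library with TNF. These were f/f library 4 for Slc6a20b (adjusted p = 0.0501), f/f library 3 or dIEC library 1 or 3 for Slc15a1, f/f library 3 or dIEC library 3 or 4 for Slc7a8, f/f library 2 or 3 or dIEC library 3 for Slc5a11 and f/f library 3 or 4 or dIEC library 4 for Slc25a23 (adjusted p up to 0.0696). For Slc22a4 and Slc30a2 they were f/f library 2, 3 or 4 or dIEC library 3 or 4, for Slc5a9 these or dIEC library 1 (adjusted p up to 0.113), and Slc39a8 held its call only without dIEC library 2 with TNF or dIEC library 4 without it (up to 0.156). The count of members called was 11, 9 and 10 without f/f libraries 2, 3 and 4 with TNF and 10 without dIEC library 3 or 4 with TNF, against 17 in all. It was 35 (7 higher, 28 lower) without the 4 libraries that stood apart, where 1493 of all 11121 rows were called (777 higher, 716 lower). Paneth cell markers were lower in dIEC with TNF (6 of 10, none higher, median -0.39), enteroendocrine markers were higher (5 of 8, none lower), and of the enterocyte markers 1 was higher and 3 lower. Whether they bear on the carriers was not tested.

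**Figure D4:**
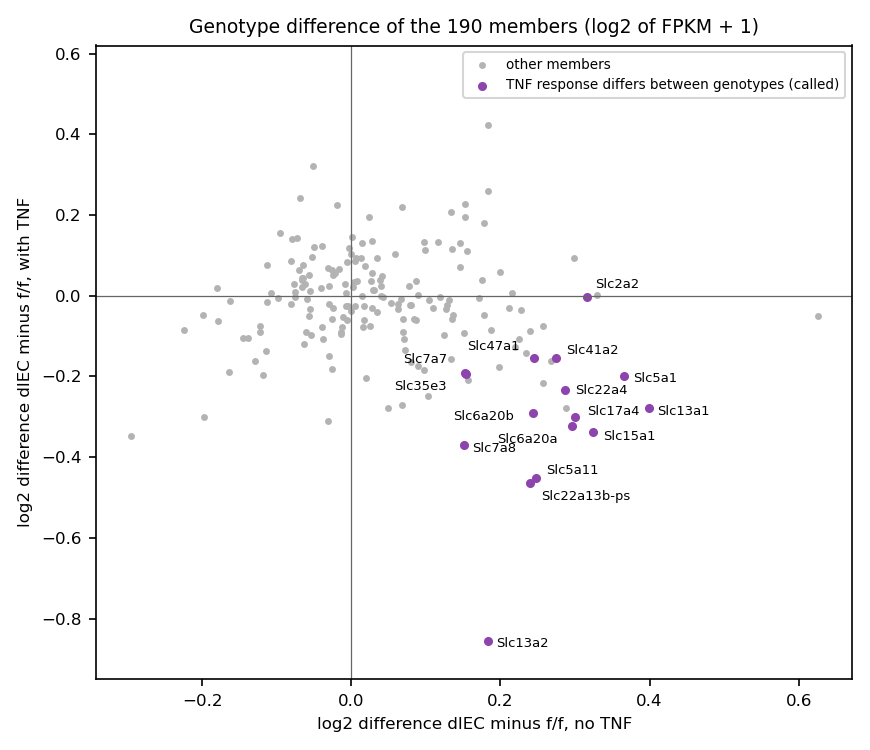
Log2 difference dIEC minus f/f of FPKM + 1 for each of the 190 members, without TNF (horizontal) and with TNF (vertical). Each point is a gene, and purple points are the 16 members whose TNF response differed between the genotypes by limma. These 16 lie to the right of 0 without TNF and at or below 0 with TNF, from Slc2a2 (0.32 and -0.00) to Slc13a2 (0.18 and -0.86).

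The response to TNF itself differed between genotypes for 16 members, and for all 16 it was lower in dIEC (a smaller rise, a deeper fall or a fall in place of a rise). With genotype and replicate number as a block, 46 members were called, 4 higher and 42 lower, among them these 16. That block called 1231 of all 11097 rows, 701 higher and 530 lower. The 16 are 8.42% of members against 3.29% of all rows, of which 1.39% had a higher and 1.9% a lower response in dIEC. The difference of responses was called for 3 of 13 sugar carriers (2 to 7 under the alternatives), 5 of 30 amino acid carriers (2 to 10), 2 of 42 ion carriers (1 to 9), 5 of 42 other organic carriers (4 to 16), 1 of 21 Slc35 members (0 to 4) and 0 of 34 mitochondrial carriers (0 to 4), the highest counts coming from sample weights. The median difference was -0.04 over members and 0.03 over all rows, and -0.25 over the sugar carriers. It uses the same libraries as the comparisons above, so the values below are those already compared, now with the test of the difference.

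Slc13a1 had the smallest p. It measured 15.1, 15.2, 16.0 and 14.5 FPKM in f/f with TNF and 12.7, 12.1, 11.4 and 13.3 in dIEC with TNF, against the unstimulated levels of 27.6 ± 1.16 and 36.7 ± 2.21 (SD, n = 4). Its fall with TNF was 0.82 in f/f and 1.50 in dIEC on the log2 scale, a difference of -0.68 (SE 0.0753, adjusted p = 0.000156). It was higher in dIEC than in f/f before TNF and lower after it, without overlap in either case.

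Slc15a1 (PEPT1, chromosome 14, 121459621 to 121505254), Slc17a4, an organic anion and phosphate carrier, and Slc22a4 showed the same crossing. Slc15a1 measured 4.19, 5.26, 5.49 and 5.30 FPKM in f/f and 6.17, 7.53, 6.18 and 6.41 in dIEC. With TNF it measured 5.63, 6.09, 6.44 and 5.72 and 4.17, 4.96, 4.23 and 4.72. The difference of its responses was -0.66 (SE 0.111, adjusted p = 0.00335), and its rise in f/f (log2 0.21, SE 0.0782, adjusted p = 0.0422) was not called when f/f 1 or 2, or with TNF f/f 2, 3 or 4, was left out (adjusted p up to 0.148) or after quantile normalization (log2 0.07, adjusted p = 0.369). Slc17a4 measured 20.9, 19.9, 20.5 and 20.7 and 25.2, 24.7, 23.5 and 28.7 FPKM without TNF and 21.8, 22.3, 25.4 and 23.4 and 18.4, 17.4, 18.1 and 20.8 with it, in f/f and dIEC in that order, and its difference of responses was -0.60 (SE 0.0925, adjusted p = 0.0019). Its rise in f/f (log2 0.17, SE 0.0654, adjusted p = 0.046) was lost in 11 of the 16 fits without 1 library (adjusted p up to 0.150), and held when the library omitted was dIEC 3 or 4, or with TNF f/f 1 or dIEC 2 or 4. Slc22a4 measured 4.20, 4.16, 4.41 and 4.20 and 5.56, 5.62, 4.87 and 5.55 without TNF and 3.36, 3.63, 3.97 and 3.66 and 3.28, 3.21, 2.59 and 2.80 with it, and its difference was -0.52 (SE 0.0869, adjusted p = 0.00335).

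**Figure D5:**
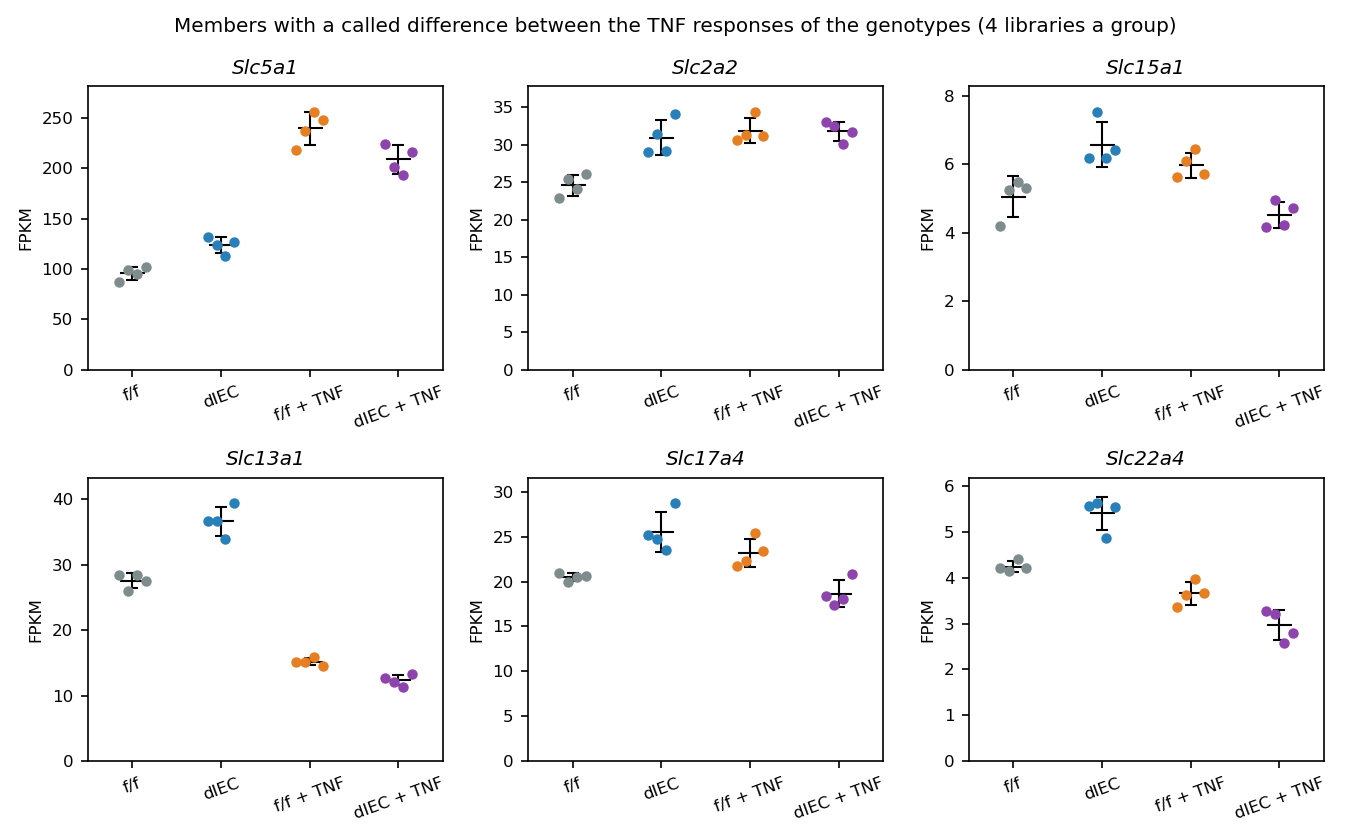
FPKM of 6 members in each of the 4 groups, each point a library, with the mean (bar) and SD (whiskers) of 4 libraries and axes from 0. dIEC lies above f/f without TNF in all 6, and with TNF it lies below f/f in Slc15a1, Slc13a1, Slc17a4 and Slc22a4. Slc2a2 overlaps with TNF, and Slc5a1 overlaps in part.

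Among sugar carriers, Slc5a1 rose with TNF in both genotypes but less in dIEC, a difference of -0.57 (SE 0.0963, adjusted p = 0.00367). Slc5a11, which carries myo-inositol, measured 6.05, 7.99, 8.12 and 8.04 FPKM in f/f and 6.25, 7.82, 8.01 and 7.23 with TNF, and 9.78, 10.1, 9.10 and 7.60 in dIEC and 5.59, 5.62, 4.29 and 4.88 with TNF, a difference of -0.70 (SE 0.151, adjusted p = 0.0189). Slc2a2 had a difference of -0.32 (SE 0.0812, adjusted p = 0.0461), which held only when the library omitted was dIEC 1 or 3, or f/f 1 with TNF (adjusted p up to 0.103). Among amino acid carriers, the proline carrier genes Slc6a20b (log2 -0.53, SE 0.0977, adjusted p = 0.00631) and Slc6a20a (log2 -0.62, SE 0.154, adjusted p = 0.0399), which are close paralogs, and the basolateral exchangers Slc7a8 (log2 -0.52, SE 0.123, adjusted p = 0.0315) and Slc7a7 (log2 -0.35, SE 0.087, adjusted p = 0.0422) all fell further in dIEC. Slc6a20a held the call only without dIEC library 4 or f/f library 1 with TNF (adjusted p up to 0.0851). Slc7a7 held it without these, f/f 2 or dIEC 1 with TNF (up to 0.0911), and Slc7a8 when the library omitted was f/f 1, 2 or 3, dIEC 3 or 4, or library 2 of either genotype with TNF (up to 0.0715).

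Slc13a2 had the largest difference. It rose in f/f from 1.75, 3.25, 3.33 and 2.63 to 4.66, 7.31, 8.35 and 7.12 FPKM and measured 3.34, 3.76, 3.54 and 2.25 and, with TNF, 3.21, 3.62, 3.59 and 2.73 in dIEC, where its change of 0.03 was not called. The difference of -1.04 (SE 0.241, adjusted p = 0.0285) held when the library omitted was f/f 1, 2 or 3 or dIEC 4, or with TNF f/f 1 or dIEC 2 or 3, and was lost in the other 9 fits (adjusted p up to 0.0669). Slc22a13b-ps rose in both genotypes, by 1.05 and 0.35, with a difference of -0.71 (SE 0.129, adjusted p = 0.0066). Slc47a1 fell in both, with a difference of -0.40 (SE 0.0738, adjusted p = 0.00672). The magnesium carrier Slc41a2 (log2 -0.43, SE 0.101, adjusted p = 0.0306) lost the call when the library omitted was f/f 1, 3 or 4 or dIEC 2, or with TNF f/f 1 or 3 or dIEC 2 or 3 (adjusted p up to 0.0746). Slc35e3 (log2 -0.34, SE 0.0875, adjusted p = 0.0461) held it only when this was dIEC 3, or with TNF f/f 1 or dIEC 1 or 4 (up to 0.104). The 9 calls that held without any 1 library were those of Slc13a1, Slc15a1, Slc17a4, Slc22a13b-ps, Slc22a4, Slc47a1, Slc5a1, Slc5a11 and Slc6a20b. Of these, Slc47a1 and Slc6a20b were below 2 FPKM in at least 1 group and met the rule through the others.

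The count of members with a called difference ranged from 9 to 18 without 1 library. It fell to 9 without f/f library 4, dIEC library 2 or f/f library 3 with TNF, and to 10 without f/f library 4 with TNF. Without the 4 libraries that stood apart it was 31, of which 2 were higher and 29 lower in dIEC. In that fit 955 of all 11121 rows were called, 524 higher and 431 lower. Of the enterocyte markers outside the Slc genes, 5 of 15 responses (Lct, Krt20, Sis and Treh among them) were lower in dIEC and none higher, with a median of -0.42. Their sums were 7404 to 8320 FPKM in f/f with TNF and 6912 to 7666 in dIEC with TNF. The responses of 2 of 10 Paneth cell markers and 1 of 7 goblet cell markers were also lower, with none higher. That of 1 of 8 enteroendocrine markers was higher. Of the 64 other transport genes 3 responses were higher and 4 lower in dIEC, among the latter Cd36 and the aquaporin Aqp8. The difference of responses of Slc6a19 was -0.38 (SE 0.171, adjusted p = 0.358), not called, but called with the replicate block (adjusted p = 0.0484). The part of the number or maturity of any cell type in these differences was not tested.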

How the data were processed

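RNA from 16 organoid libraries, 4 in each of 4 groups, was measured by RNA sequencing. Values were used as the authors deposited them, in FPKM per gene, which are normalized values and not counts. Per the submitters' processing notes, TopHat2 2.1.1, Cufflinks 2.2.1 and Cuffdiff and the mm10 build were used; their settings, the strand of the libraries and the handling of reads shared by similar genes are not stated there. The columns hold no read depth. A rough estimate came from the median of low FPKM values of single-exon genes within a fixed range, which limits where it could fall.

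For the 11097 rows averaging 1 FPKM or more, limma 3.58.1 (R 4.3.3) was fitted on log2(FPKM + 1) with 1 mean per group over all 16 libraries and a mean-variance trend. Tests were two-sided, p-values were adjusted by Benjamini-Hochberg over all rows in each comparison, and calls were made under 0.05 with no minimum fold. Fold changes are on the log2(FPKM + 1) scale, which understates the change of low genes. All 190 members passed the minimum of 1 FPKM. On simulated data 100 genes were changed by 0.5 and 100 by 1 on the log2 scale. The fit recovered 83, 82, 79, 84 and 72 of the first and 96, 95, 95, 95 and 86 of the second. It made 11, 11, 7, 7 and 7 false calls. The order is dIEC against f/f, the same with TNF, TNF in f/f, TNF in dIEC and the difference of responses. The simulated noise was independent between genes and no other gene changed, unlike in the data, so these shares need not hold for the libraries here.

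Members named were, in each comparison, the 8 largest called rises and falls without overlap, the member of smallest p and the 3 of highest level in each class, and 38 textbook carriers; Slc26a2, Slc29a3, Slc35a4, Slc39a8, Slc41a2, Slc5a9 and Slc9a3r1 were named after their values were seen. Members, classes and lists were chosen with earlier results of these data known. Alternatives were other pseudocounts, no minimum mean, other scalings, sample weights, replicate blocks, only the 8 libraries compared, and libraries left out. Between dIEC libraries with and without TNF, deviations from the group means over genes correlated at 0.118 to 0.419 for the same number. For other numbers they correlated at -0.253 to 0.159. In 4 of 4 cases the own number was best, but the labels state no pairing.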

Additional observations from a re-analysis of the deposited data

Results flagged for a closer look

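Among 71 named members in 4 groups of 4 libraries (284 groups), 21 held a library whose gap to the nearest other exceeded Dixon's critical value, where chance flags about 1 in 20 groups. Of these, 8 were dIEC library 4 with TNF, 7 f/f library 1 with TNF and 2 f/f library 1, which belong to the 4 libraries that stood apart. In dIEC library 4 with TNF, Slc12a2 (264 FPKM), Slc31a1 (48.3), Slc27a2 (39.9), Slc35a3 (72.6) and Slc35f5 (32.3) lay above the other 3 libraries of the group, and Slc16a3 (26.8), Slc2a1 (20.8) and Slc25a23 (5.01) below them. In f/f library 1 with TNF the outlying values, all the lowest of the group, were 771 FPKM for Slc25a5, 58.9 for Slc35b1, 40.5 for Slc1a5, 29.2 for Slc37a4, 18.0 for Slc2a1, 6.40 for Slc16a5 and 4.87 for Slc22a13b-ps. In f/f library 1 they were 6.05 for Slc5a11 and 3.14 for Slc28a1. The remaining 4 were Slc22a13b-ps in dIEC library 1 (3.50), Slc15a1 in dIEC library 2 (7.53), Slc22a4 in dIEC library 3 (4.87) and Slc5a4b in dIEC library 3 with TNF (20.9).

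The TNF response differed between the genotypes by limma for 16 members. The log2 difference, dIEC minus f/f, was -0.68 for Slc13a1, -1.04 for Slc13a2, -0.66 for Slc15a1, -0.60 for Slc17a4, -0.71 for Slc22a13b-ps, -0.52 for Slc22a4, -0.32 for Slc2a2 and -0.34 for Slc35e3. It was -0.43 for Slc41a2, -0.40 for Slc47a1, -0.57 for Slc5a1, -0.70 for Slc5a11, -0.62 for Slc6a20a, -0.53 for Slc6a20b, -0.35 for Slc7a7 and -0.52 for Slc7a8.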

How the results depend on the processing

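Against 11 members called between genotypes without TNF, sample weights gave 36 (22 higher, 14 lower) and the 8 libraries compared alone 3. Leaving out the 4 libraries that stood apart gave 19, and leaving out each library in turn 4 to 13. Over all 11097 rows, 258 were called as reported, 1781 with the weights (582 higher, 1199 lower) and 136 in the 8 libraries alone. Without the 4 libraries 693 of 11121 rows were called. Against 17 with TNF, the weights gave 51 (10 higher, 41 lower), leaving out the 4 libraries 35, and each library in turn 9 to 21. The counts over all rows were 721 as reported, 2556 with the weights (1295 higher, 1261 lower) and 1493 without the 4 libraries. Against 16 differences of responses, median-of-ratios scaling gave 26, the weights 52 (10 higher, 42 lower) and the replicate block of genotype and number 46. Leaving out the 4 libraries gave 31, and each library in turn 9 to 18. The counts over all rows were 365 as reported, 403 with that scaling and 1920 with the weights (1239 higher, 681 lower). They were 1231 with the block (701 higher, 530 lower) and 955 without the 4 libraries. Calls of TNF responses ranged from 92 to 110 in f/f and from 98 to 119 in dIEC without 1 library, and stayed within 1.5 times the reported count under every alternative run. Among all members called, some alternative ended the call of 9 of 11, 11 of 17, 17 of 100, 17 of 107 and 7 of 16, in the order dIEC against f/f, the same with TNF, TNF in f/f, TNF in dIEC and the difference of responses, and no named call changed sign. The cause was not tested.

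Same-numbered libraries correlated at -0.03 to 0.321 between f/f and f/f with TNF (3 of 4 best with their own number), -0.0838 to 0.128 between unstimulated genotypes and -0.166 to 0.166 between genotypes with TNF (0 of 4 in each), so there they share only a number. The number as a replicate block gave 12, 16, 114, 123 and 19 calls in the same order, and the block of genotype and number 137 and 149 for the TNF responses, with every reported call kept. Over all rows the number block called 306, 878, 5624, 6316 and 443, and the block of genotype and number 7336 and 7862. The blocks ended no reported TNF call and no reported difference of responses, and the number block kept 15 of the 17 genotype calls with TNF. No scaling moved the median of all genes by over 0.1. Depth may limit low members, and the rough estimate of 71.1 to 83.6 fragments at 2 FPKM over 1 kb depends on the range of values used.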

Other observations

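Outside the Slc genes, the exporter Abcc1 (MRP1) rose with TNF by 0.90 in f/f and 1.32 in dIEC on the log2 scale, and its response was higher in dIEC by 0.42. The transferrin receptor gene Tfrc fell by 1.22 and 0.83 and was higher in dIEC with TNF by 0.63. Aqp8, a water channel, rose by 1.44 and 0.69, and its response was lower in dIEC by 0.75. The cholesterol exporter Abca1 rose by 1.29 and 0.71, lower in dIEC by 0.58. All these changes were called by limma over all rows, and the genes were picked from the list of 64 after their values were seen.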
